A study of Mus musculus with 8 samples.

Results

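The 10 genes followed belong to the Toll-like receptor system: Tlr1, Tlr2, Tlr3, Tlr4, Tlr6, Tlr7, Tlr9, the receptor-like Cd180, the transport protein Unc93b1 and the adaptor Myd88. They were chosen by name, as the rows of the deposited gene table that carry these symbols, and all 10 of 10 were found among 16419 genes. The samples were leukemia cells of 4 mice carrying both a ROR1 and a TCL1 transgene (labelled ROR1xTCL1) and of 4 mice carrying only the TCL1 transgene (labelled TCL1), so every animal carried TCL1. The title of the series places TCL1 under the Eµ element, the immunoglobulin heavy chain enhancer that is active in B cells. TCL1 is an oncogene that activates the kinase AKT, and ROR1 is an orphan receptor tyrosine kinase found on chronic lymphocytic leukemia cells. Total RNA was read on 1 Affymetrix Mouse Exon 1.0 ST array per mouse, with no technical replicates, and age, sex, strain and tissue of origin are not given in the sources used here.

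Toll-like receptors are membrane proteins that recognise molecules of microbes. TLR1, TLR2, TLR4 and TLR6 act at the cell surface, where TLR2 pairs with TLR1 or TLR6 to bind lipopeptides and TLR4 binds lipopolysaccharide, whereas TLR3, TLR7 and TLR9 bind nucleic acids in endosomes, to which UNC93B1 carries them. All of these receptors except TLR3 signal through MYD88, which assembles IRAK kinases and leads to NF-kB, and B cells are known for strong responses to ligands of TLR7 and TLR9. CD180 is a relative of TLR4 on B cells that lacks the signalling domain of the other receptors.

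The start regions of 5 members are shown because these genes carry the results below: Tlr1 and Tlr6, which lie on the same chromosome and whose correlation is given below, Tlr9 with its 1 high array, the bright Cd180, and the shared adaptor Myd88. Each line holds the 250 bases before an annotated start in RefSeq, assembly GRCm38.p6 (the start listed first, where a gene has 2), read 5′ to 3′ along the gene. Capitals mark matches, on either strand, to GAGGAA (the core bound by PU.1 and related factors), ATGCAAAT (the octamer bound by Oct-1 and Oct-2), GAAA, any 2 bases and GAAA (an interferon response element) or GGG, any 2 bases and TTTCC (an NF-kB element).
Tlr1, chr5:64933559-64933808, minus strand: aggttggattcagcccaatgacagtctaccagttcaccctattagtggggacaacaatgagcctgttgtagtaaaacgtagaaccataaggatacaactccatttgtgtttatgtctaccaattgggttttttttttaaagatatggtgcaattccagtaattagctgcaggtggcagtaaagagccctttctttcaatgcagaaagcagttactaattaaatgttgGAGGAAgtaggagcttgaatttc
Tlr6, chr5:64959167-64959416, minus strand: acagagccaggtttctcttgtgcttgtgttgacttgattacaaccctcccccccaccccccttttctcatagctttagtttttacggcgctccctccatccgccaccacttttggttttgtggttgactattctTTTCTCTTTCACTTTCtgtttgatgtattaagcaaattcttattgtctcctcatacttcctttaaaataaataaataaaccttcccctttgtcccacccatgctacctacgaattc
Tlr9, chr9:106222348-106222597, plus strand: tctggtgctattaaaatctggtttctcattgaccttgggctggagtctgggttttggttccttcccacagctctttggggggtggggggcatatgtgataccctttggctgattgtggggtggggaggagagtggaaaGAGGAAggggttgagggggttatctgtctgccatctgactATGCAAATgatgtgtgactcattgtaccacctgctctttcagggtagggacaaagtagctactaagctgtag
Cd180, chr13:102693297-102693546, plus strand: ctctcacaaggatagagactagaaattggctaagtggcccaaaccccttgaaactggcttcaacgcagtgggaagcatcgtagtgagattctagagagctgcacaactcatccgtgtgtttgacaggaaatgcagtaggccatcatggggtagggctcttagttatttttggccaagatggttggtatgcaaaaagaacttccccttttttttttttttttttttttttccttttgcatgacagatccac
Myd88, chr9:119340019-119340268, minus strand: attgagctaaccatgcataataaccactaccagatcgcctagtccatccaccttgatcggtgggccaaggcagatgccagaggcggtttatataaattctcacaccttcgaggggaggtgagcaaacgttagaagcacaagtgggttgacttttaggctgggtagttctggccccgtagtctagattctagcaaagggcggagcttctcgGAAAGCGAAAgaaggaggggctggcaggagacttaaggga

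The RefSeq table used here held 10 windows of 7 of the 10 members, with 2 starts each for Tlr1, Tlr6 and Cd180, and Tlr4, Tlr7 and Unc93b1 are named only. Counted back from the start, with -1 as the last base before it, GAGGAA lay at -23 in the printed Tlr1 window and at -112 in the Tlr9 window, and the octamer lay at -72 in the Tlr9 window. The interferon response letters lay at -116 and -110 in the printed Tlr6 window, where the matches overlap, and at -40 in the Myd88 window. The NF-kB letters lay at -211 in the Tlr3 window. None of the 4 motifs, as spelled above, was found in the Tlr2 window, in the second windows of Tlr1 and Tlr6, or in either window of Cd180. Other spellings of these elements were not searched. Over 32851 windows of the same length, 23.3% held GAGGAA, 1.6% the octamer, 2.98% the interferon response letters and 1.41% the NF-kB letters. A match is a description of letters and no evidence of binding.

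The values are log2 units that are relative within an array. The median gene stood at 5.03 to 5.09 on the 8 arrays. Signals of 838 olfactory receptor genes, which B cells are not known to use, served as a measured background, and their 95th percentile was 4.48 to 4.99. B cell identity was checked first: all 9 measured of 10 B cell markers were above that level on all 8 arrays. Ror1 itself read 4.07, 4.85, 4.25 and 4.49 in ROR1xTCL1 leukemias, against 3.67, 3.68, 3.72 and 4.03 in TCL1 leukemias, without overlap but under the olfactory level of every array (limma unadjusted p = 0.00561, adjusted p = 1.0). The Y-linked gene Ddx3y was high on ROR1xTCL1 arrays c and d, at 7.70 and 8.15, and on TCL1 array c, at 7.29. It was 2.42 to 2.88 on the others. Kdm5d, also Y-linked, was high on the same arrays, at 6.79, 6.12 and 6.59, and was 2.54 to 2.94 on the others. Signal of Y-linked genes was thus not balanced between the groups. In RNA of a whole sample, more cells of a type and more RNA per cell cannot be told apart.

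Of the 10 members 9, all but Tlr3, were above the olfactory level on all 8 arrays; Tlr3 was above it on 7. Over all genes, 48.1% were above it on all 8 arrays. Measured against the 99th percentile of the olfactory genes instead, 7 of the 10 were above on every array, beside 35.1% of all genes, with Tlr3 above on 4, Tlr4 on 6 and Tlr6 on 7 arrays. Brightness depends on the probes of a gene, so the levels give no order of RNA amounts between the receptors.

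**Figure D1:**
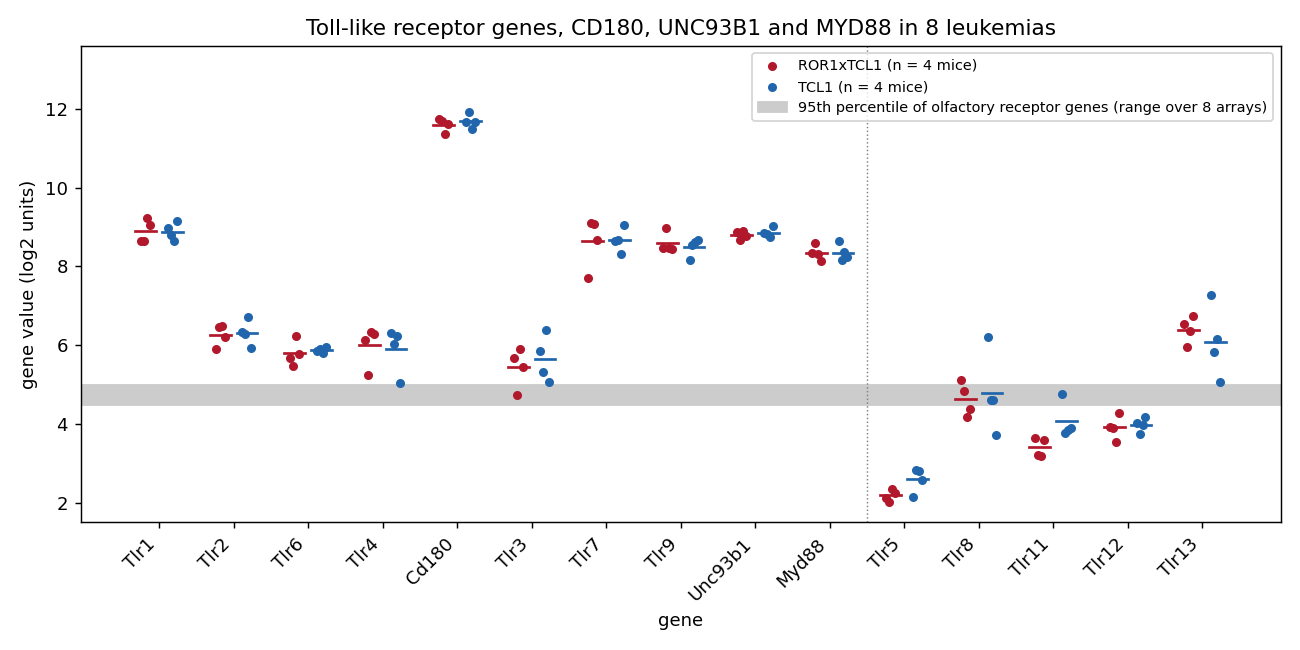
Log2 value of each gene (vertical axis) on each of the 4 ROR1xTCL1 and 4 TCL1 arrays (1 point per array, bars for group means), with the range of the 95th percentile of 838 olfactory receptor genes as a band. The points of both groups overlap for all 10 genes, Cd180 lies far above the band at 11.36 to 11.91, and the lowest Tlr3 point, 4.75 on ROR1xTCL1 array b, falls within it.

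CD180 was among the brightest genes of the arrays. Cd180 read 11.74, 11.69, 11.36 and 11.63 in ROR1xTCL1 leukemias, against 11.68, 11.91, 11.50 and 11.67 in TCL1 leukemias. These values stood above 99.8% of genes or more on every array, and the groups overlapped. The 3 lowest readings, 11.36, 11.50 and 11.63, were those of the 3 arrays with high Ddx3y, a pattern seen only on inspection of the values. The group difference was -0.09 ± 0.13 (SE) log2 units, and -0.02 with Ddx3y as a covariate. Ly86, which encodes MD-1, the partner that CD180 needs to reach the cell surface, averaged 11.67 ± 0.20 in ROR1xTCL1 and 11.67 ± 0.21 in TCL1 leukemias (SD, n = 4 each).

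Among the nucleic acid sensors, Tlr7 and Tlr9 were bright in all 8 leukemias. Tlr7, an X-linked receptor for single-stranded RNA, read 7.72, 9.10, 9.07 and 8.68 in ROR1xTCL1 leukemias, against 8.65, 8.66, 8.33 and 9.04 in TCL1 leukemias. ROR1xTCL1 array a was the lowest of all 8, and it sets most of the wide spread of its group (SD 0.65, against 0.29 in TCL1). Tlr9, the receptor for unmethylated CpG DNA, read 8.47, 8.97, 8.47 and 8.44 in ROR1xTCL1 leukemias, against 8.17, 8.54, 8.63 and 8.67 in TCL1 leukemias. Array b of ROR1xTCL1 stood above the other arrays, and the other 3 of its group lay within the TCL1 range. Tlr7 stood above 85.7 to 96.6% and Tlr9 above 90.3 to 96.1% of the genes of each array.

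Tlr3, the receptor for double-stranded RNA, was dimmer and varied more. It read 5.69, 4.75, 5.90 and 5.45 in ROR1xTCL1 leukemias, against 5.84, 5.31, 6.39 and 5.07 in TCL1 leukemias. The range over all arrays was 1.64 log2 units, and the standard deviation over the 8 arrays exceeded that of 92.0% of genes. The lowest arrays were b of ROR1xTCL1 and d of TCL1. Unc93b1, the chaperone of these receptors, was the steadiest member: it read 8.87, 8.67, 8.90 and 8.78 in ROR1xTCL1 leukemias, against 8.86, 8.82, 8.74 and 9.02 in TCL1 leukemias. Its standard deviation exceeded that of only 8.0% of genes.

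Of the surface receptors, Tlr1 was bright. Tlr1 read 8.64, 8.64, 9.22 and 9.06 in ROR1xTCL1 leukemias, against 8.96, 8.79, 8.64 and 9.14 in TCL1 leukemias, above 93.9 to 97.1% of genes. Tlr6, the other partner of TLR2, read 5.67, 5.48, 6.25 and 5.77 in ROR1xTCL1 leukemias, against 5.86, 5.90, 5.80 and 5.94 in TCL1 leukemias. The 4 TCL1 values of Tlr6 lay within 0.14 of each other and inside the ROR1xTCL1 range. Tlr2 itself read 5.91, 6.47, 6.49 and 6.20 in ROR1xTCL1 leukemias, against 6.34, 6.29, 6.72 and 5.93 in TCL1 leukemias. Its lowest arrays, ROR1xTCL1 array a and TCL1 array d, came from different groups.

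Tlr4 read 6.13, 5.25, 6.34 and 6.29 in ROR1xTCL1 leukemias, against 6.31, 6.04, 6.23 and 5.03 in TCL1 leukemias. In each group 1 array was low (ROR1xTCL1 b and TCL1 d), the same arrays as for Tlr3, and the other 6 spanned 6.04 to 6.34. These 2 arrays also had the highest 95th percentiles of the olfactory genes, 4.95 and 4.99, against 4.48 to 4.73 on the others; whether this bears on the low values was not tested. Ly96, which encodes MD-2, the lipopolysaccharide-binding partner of TLR4, averaged 9.47 ± 0.25 in ROR1xTCL1 and 9.67 ± 0.16 in TCL1 leukemias (SD, n = 4 each), a difference of -0.20 ± 0.15 (SE).

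Myd88 encodes the adaptor downstream of the Toll-like receptors above other than TLR3. It read 8.34, 8.59, 8.31 and 8.15 in ROR1xTCL1 leukemias, against 8.66, 8.16, 8.36 and 8.23 in TCL1 leukemias. The values of both groups interleaved. Myd88 stood above 90.3 to 94.1% of the genes of each array, and its standard deviation exceeded that of 39.9% of genes.

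The comparison of ROR1xTCL1 with TCL1 leukemias asks what ROR1 adds to a leukemia driven by TCL1. None of the 10 members passed an adjusted p of 0.05 in limma (0 of 10), and 0 had an unadjusted p under 0.05. Over all 16419 genes 0% passed the adjusted threshold, 1.63% had an unadjusted p under 0.05, and in 1.1% the groups' values did not overlap, so the members' count of 0 is that of the array as a whole. The values of the groups overlapped for 10 of 10 members. The differences ran from -0.21 ± 0.33 (SE) for Tlr3 to 0.10 ± 0.33 for Tlr4, and all 10 adjusted p were 1.0. Unadjusted p were 0.506 (Cd180) to 0.971 (Tlr1) in limma and 0.514 to 1.0 in exact 2-sided permutation tests, whose smallest possible p with 4 against 4 arrays is 0.0286.

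The intervals show what these arrays could resolve. For Unc93b1 the 95% interval of the difference was -0.29 to 0.18, for Myd88 -0.33 to 0.32, for Cd180 -0.38 to 0.20 and for Tlr1 -0.38 to 0.40. For the variable receptors it was wider: -0.95 to 0.54 for Tlr3, -0.65 to 0.85 for Tlr4 and -0.71 to 0.66 for Tlr7. A 2-fold change, 1 log2 unit on the scale of the array, lay outside the interval of all 10 members in this fit, in either direction. For the dim Tlr3 the margin was narrow, and leaving out 1 array moved its difference to as low as -0.40. Differences that lie inside the interval of a member were not resolved. Of the members 3 lay above 0 and 7 below, with a median difference of -0.04, beside a median of -0.01 over all genes.

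**Figure D2:**
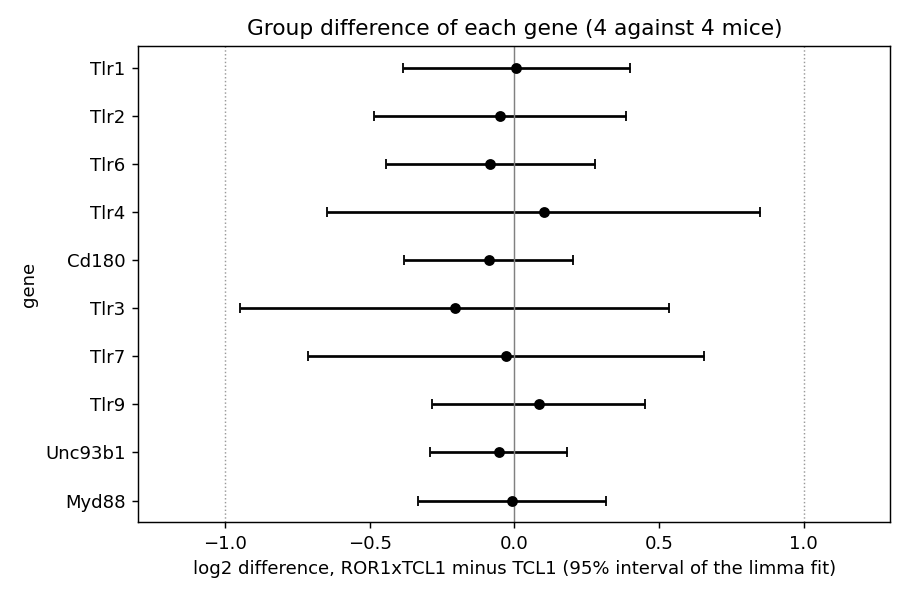
Log2 difference, ROR1xTCL1 minus TCL1, of each of the 10 genes (points) with the 95% interval of the limma fit (lines, 4 mice per group); dotted lines mark 2-fold. Every interval includes 0 and ends before 2-fold, with Tlr3, Tlr4 and Tlr7 the widest.

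The receptors varied between arrays of the same genotype, so their covariation was examined over the 8 arrays. Among the 45 pairs of members, 0 passed an adjusted p of 0.05 in exact permutation tests over 40320 pairings, and 3 had an unadjusted p under 0.05. Tlr3 and Tlr4 correlated at r = 0.78 (exact permutation p = 0.0154, adjusted p = 0.346; rho = 0.79, p = 0.028). The correlation was 0.83 after removing the group means and 0.81 without the 2 arrays farthest from the median of Tlr3. Without ROR1xTCL1 array b and TCL1 array d, the low arrays of both genes, it was 0.44 (exact permutation p = 0.407).

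Tlr1 and Tlr6 correlated at r = 0.77 (exact permutation p = 0.0137, adjusted p = 0.346; rho = 0.75, p = 0.038). The correlation was 0.79 within groups and 0.49 without the 2 arrays farthest from the median of Tlr1, and with the mean of probe sets it was 0.63 (exact permutation p = 0.103). Tlr4 and Tlr9 correlated at r = -0.73 (exact permutation p = 0.026, adjusted p = 0.39; rho = -0.83, p = 0.015). That correlation was -0.77 within groups and -0.46 without the 2 arrays farthest from the median of Tlr4, which are ROR1xTCL1 array b and TCL1 array d. On these arrays Tlr9 was at its highest, 8.97 and 8.67, and Tlr7 read 9.10 and 9.04.

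**Figure D3:**
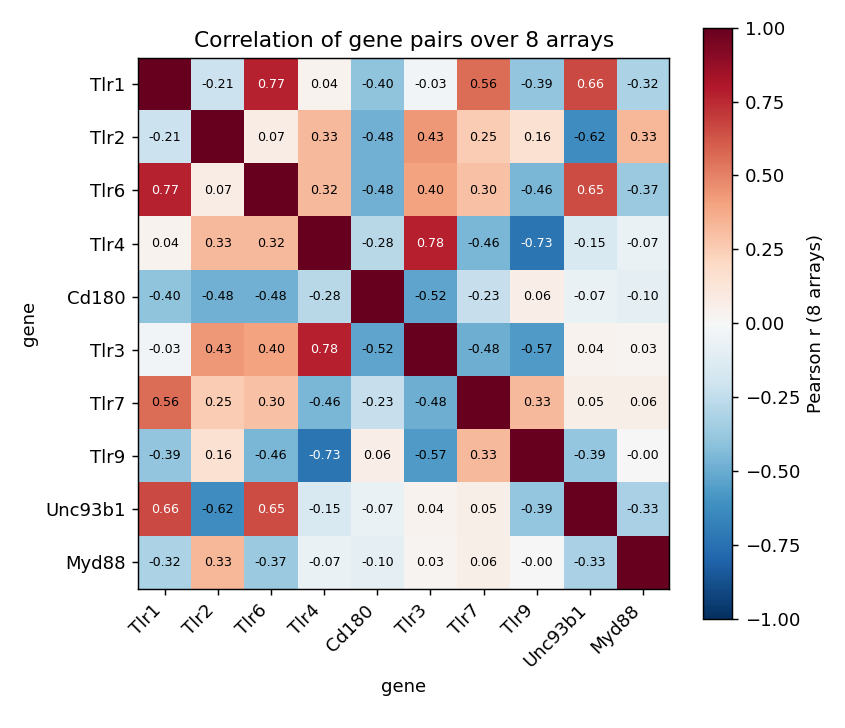
Pearson correlation over 8 arrays of each pair of the 10 genes (both axes list the genes, colour and number give r from -1 to 1). Tlr3 with Tlr4 (0.78) and Tlr1 with Tlr6 (0.77) are the most positive pairs and Tlr4 with Tlr9 (-0.73) the most negative; none passed the adjustment over 45 pairs.

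The genes whose pattern over the 8 arrays was most like that of Tlr4, Tlr7 and Tlr2 were taken from 2517 genes above the median gene with a standard deviation of at least 0.3. These 3 members had the largest standard deviations among those above the olfactory level on all arrays; Tlr3, the most variable of the 10, was above it on 7 arrays and was left out, and Tlr2 itself varied by only 0.28 (SD over 8 arrays). For Tlr4 these were Ero1a (r = 0.97), Gatc (0.97) and Rfc4 (0.96). For Tlr7 they were Zfp385a (0.98), St13 (0.95) and Ptger4 (0.89). For Tlr2 they were Arhgef2 (0.95), Lxn (0.94) and Cyp2d22 (0.89). These are the highest of 2517 coefficients over 8 points, and Ero1a shows the form: 7.54, 6.98, 7.62 and 7.66 in ROR1xTCL1 leukemias, against 7.77, 7.61, 7.65 and 7.03 in TCL1 leukemias, low on the same arrays as Tlr4.

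Several receptors are also made by myeloid and other cells, so markers of those cells were set beside them. A marker score averages, over the genes of a list, how far each stood on an array from its own 8-array mean. The neutrophil score was -0.16, -0.13, -0.73 and -0.58 in ROR1xTCL1 leukemias, against 2.64, -1.11, 1.18 and -1.11 in TCL1 leukemias, with 4 of 16 measured markers above the olfactory level on all arrays and summed linear signals of 1017 to 1752 in ROR1xTCL1 and 666 to 13043 in TCL1. The monocyte and macrophage score was 0.71, -0.24, -0.38 and -0.45 in ROR1xTCL1 leukemias, against 0.97, 0.06, 0.13 and -0.80 in TCL1 leukemias, with 7 of 15 measured markers above that level on all arrays and summed linear signals of 1026 to 2393 in ROR1xTCL1 and 1073 to 3404 in TCL1. The erythroid score was 1.80 on ROR1xTCL1 array a and -0.96, -0.38 and -0.88 on the others of that group, against 0.58, 0.46, -0.00 and -0.61 in TCL1 leukemias, with 8 of 8 measured markers above that level and summed linear signals of 1372 to 9469 in ROR1xTCL1 and 1998 to 4746 in TCL1. Of the T cell markers 8 of 12 measured were above that level, with summed linear signals of 991 to 2347 in ROR1xTCL1 and 953 to 2741 in TCL1. For plasmacytoid dendritic cells it was 5 of 9, with 1607 to 2962 in ROR1xTCL1 and 1762 to 3118 in TCL1. For conventional dendritic cells it was 2 of 10, with 712 to 1187 in ROR1xTCL1 and 382 to 2805 in TCL1. In both groups the marker signals of these cells differed from animal to animal.

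Of the 80 pairs of a member and a marker score, 0 passed an adjusted p of 0.05 in exact permutation tests. Tlr4 correlated with the natural killer cell score at r = 0.85 (exact permutation p = 0.0031, adjusted p = 0.246; rho = 0.93), and at 0.54 without the 2 arrays farthest from its median. That score, of which 3 of 9 markers were above the olfactory level on all arrays and Klre1 on none, summed to linear signals of 685 to 927 in ROR1xTCL1 and 513 to 1348 in TCL1. Tlr7 correlated with the erythroid score at r = -0.84 (exact permutation p = 0.0125, adjusted p = 0.50; rho = -0.83), and at -0.42 without its 2 farthest arrays. ROR1xTCL1 array a, the lowest for Tlr7, had the highest erythroid score. Myd88 correlated with the neutrophil score at r = 0.76 (exact permutation p = 0.0318, adjusted p = 0.826; rho = 0.83), and at 0.71 without its 2 farthest arrays. The part of these cells in the receptor values was not tested.

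**Figure D4:**
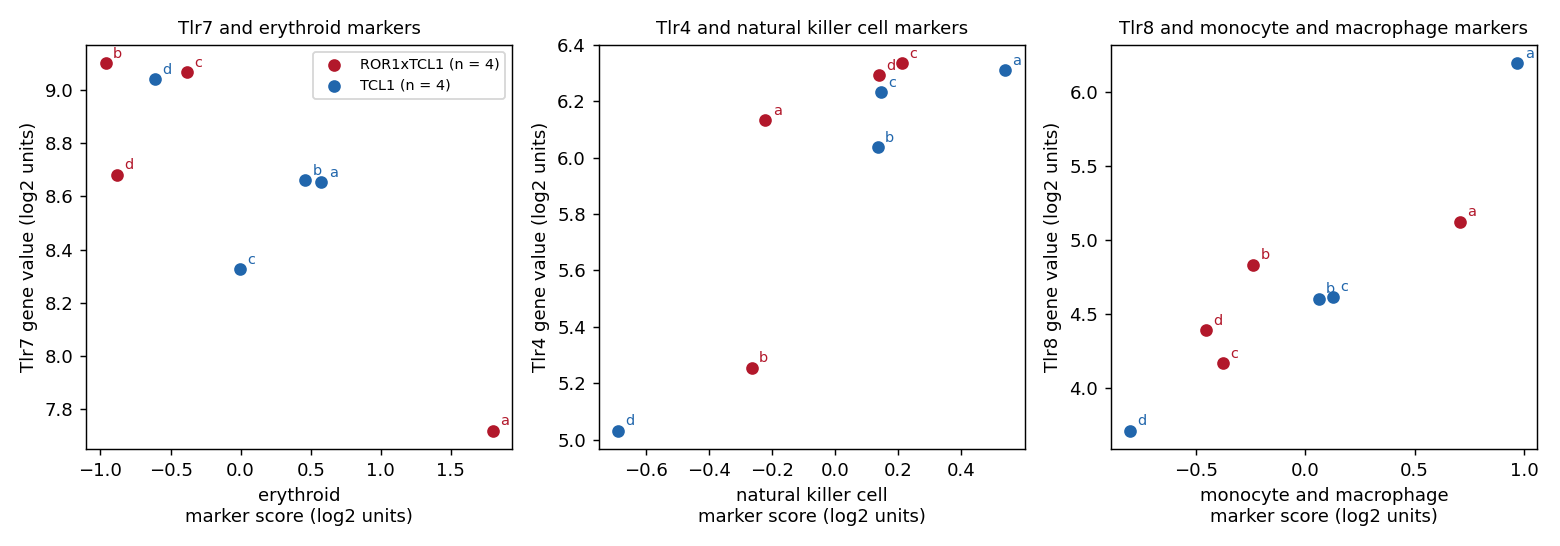
Log2 value of a receptor (vertical axes) against the marker score of another cell type (horizontal axes, log2 units), 1 point per array with ROR1xTCL1 and TCL1 in different colours: Tlr7 with erythroid cells, Tlr4 with natural killer cells, Tlr8 with monocytes and macrophages. ROR1xTCL1 array a, with the highest erythroid score (1.80), has the lowest Tlr7 (7.72), and TCL1 array a has the highest monocyte score (0.97) and Tlr8 (6.20); Tlr8 was above the olfactory level on 3 of the 8 arrays.

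The other Toll-like receptors of the mouse were mostly dark. Tlr5, the flagellin receptor, and Tlr12 were below the olfactory level on all 8 arrays, Tlr11 was above it on 1 and Tlr8 on 3, and Tlr13, a receptor for bacterial ribosomal RNA, was above it on all 8. Tlr13 read 6.54, 5.96, 6.37 and 6.73 in ROR1xTCL1 leukemias, against 7.29, 5.83, 6.15 and 5.06 in TCL1 leukemias, a difference of 0.32 ± 0.41 (SE). Tlr8 read 5.13, 4.84, 4.17 and 4.39 in ROR1xTCL1 leukemias, against 6.20, 4.61, 4.62 and 3.71 in TCL1 leukemias. Its readings correlated with the monocyte and macrophage score at r = 0.92 (exact permutation p = 0.0006, adjusted p = 0.0248 over 40 pairs; rho = 0.90, p = 0.0046, adjusted p = 0.182), and at 0.81 without TCL1 arrays a and d. Within groups r was 0.92. As 5 of the 8 readings lie under the olfactory level, they do not show that the RNA was present on those arrays.

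In the dim Tlr11 the groups did not overlap: it read 3.64, 3.20, 3.20 and 3.59 in ROR1xTCL1 leukemias, against 4.77, 3.78, 3.86 and 3.90 in TCL1 leukemias. The difference was -0.67 ± 0.23 (SE; limma unadjusted p = 0.017, adjusted p = 1.0). Tlr5 averaged 2.19 ± 0.15 in ROR1xTCL1 and 2.60 ± 0.31 in TCL1 leukemias (SD, n = 4 each), a difference of -0.41 ± 0.16 (SE; limma unadjusted p = 0.034, adjusted p = 1.0). With nearly all of these readings under the olfactory level, no change of RNA can be read from them.

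The rest of the pathway was taken from lists of accessory proteins, adaptors, kinases and ligases, negative regulators, related interleukin receptors and response genes, and in each of them 0 genes passed an adjusted p of 0.05 in limma. Of 5 measured adaptors 1 lay above 0 and 4 below, with a median difference of -0.06; Tifa, an adaptor of TRAF proteins, differed most, at -0.73 ± 0.36 (SE), Sarm1 by -0.16 ± 0.15, and Ticam1, the adaptor of TLR3, by 0.09 ± 0.21. Of 17 accessory and delivery proteins 8 lay above 0 and 9 below (median -0.01). Cd36, a scavenger receptor that works with TLR2 and TLR6, differed by 0.66 ± 0.48 and Lbp, the lipopolysaccharide-binding protein, by -0.58 ± 0.39. Of 28 kinases, ligases and transcription factors 18 lay above 0 and 10 below (median 0.03), among them Traf3 at -0.54 ± 0.42, Mapk8 at -0.31 ± 0.16 and Peli2 at -0.21 ± 0.14. The medians of these 3 lists changed sign with 1 array: 0.032 for the adaptors without ROR1xTCL1 array a, 0.10 and 0.056 for the accessory proteins without ROR1xTCL1 array c and TCL1 array a, and -0.0036 for the kinases and their partners without ROR1xTCL1 array c.

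Of 16 negative regulators 2 lay above 0 and 14 below, with a median of -0.13, while over all genes 7543 lay above 0 and 8876 below. Socs1, an inhibitor of cytokine signalling, was the 1 gene of the pathway lists outside the receptors with an unadjusted p under 0.05: it read 6.13, 5.96, 6.13 and 6.38 in ROR1xTCL1 leukemias, against 6.60, 6.30, 6.63 and 6.57 in TCL1 leukemias (difference -0.38 ± 0.13, SE; limma unadjusted p = 0.014, adjusted p = 1.0). Only the ROR1xTCL1 array d reading overlapped the TCL1 range. Irak3, which blocks the release of IRAK kinases from MYD88, differed by -0.57 ± 0.39 and Nlrx1 by -0.27 ± 0.16. Without ROR1xTCL1 array b and TCL1 array d, 12 of the 16 lay below 0, with a median of -0.06.

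Of 20 response genes, which stimulated B cells and macrophages induce, 4 lay above 0 and 16 below, with a median of -0.12. Il10, a cytokine that B cells release after Toll-like receptor stimulation, averaged 8.76 ± 0.71 in ROR1xTCL1 and 9.27 ± 0.43 in TCL1 leukemias (SD, n = 4 each), a difference of -0.52 ± 0.35 (SE). Ccl4, a chemokine, differed by -0.38 ± 0.29 and Il12b by -0.21 ± 0.13. These figures depend on single arrays: 12 of the 20 lay below 0 without ROR1xTCL1 array c (median -0.02), 13 without TCL1 array a (median -0.09), 16 without TCL1 array c (median -0.26) and 11 without TCL1 array d (median -0.13). Of 6 receptors of the interleukin 1 family, 1 of which was above the olfactory level on all arrays, 2 lay above 0 and 4 below (median -0.05), and without TCL1 array a 4 lay above 0 and 2 below (median 0.085). Among them Il1r2, a decoy receptor that does not signal, differed by -0.33 ± 0.73 and Il18rap by -0.26 ± 0.35. Il1rap, a subunit shared by some receptors of this family, differed by -0.07 ± 0.21.

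The exon array holds several probe sets per gene, which gave a reading of each member within the same arrays. The 10 members had 105 probe sets, of which 0 passed an adjusted p of 0.05 in limma and 0 had an unadjusted p under 0.05; over all 1236087 probe sets 0% and 3.3% did. Every probe set of Cd180 (11 of 11), Tlr1 (7 of 7) and Tlr9 (10 of 10) was above the median probe set on all 8 arrays. So were 17 of 19 for Unc93b1, 8 of 9 for Tlr7, 6 of 7 for Myd88, 5 of 7 for Tlr4, 8 of 11 for Tlr6, 12 of 19 for Tlr3 and 3 of 5 for Tlr2. Tlr2, whose gene value was 5.91 to 6.72, had probe sets averaging 1.20 to 7.66, the lowest 2 of them below the median probe set.

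The probe sets of a gene differed in direction in every member but Cd180. All 11 probe sets of Cd180 were lower in ROR1xTCL1 leukemias, with a median difference of -0.13 and a smallest unadjusted p of 0.282 in limma, and probe sets of 1 gene on the same arrays are not independent. For Tlr3 16 of 19 were lower in ROR1xTCL1 leukemias (median -0.15), and for Unc93b1 14 of 19 (median -0.07). For Tlr4 6 of 7 were higher (median 0.17), and for Tlr2 4 of 5 (median 0.14) although its gene value differed by -0.05. In the remaining members, 4 were higher and 3 lower for Tlr1 and for Myd88, 4 and 5 for Tlr7, 6 and 4 for Tlr9, and 3 and 8 for Tlr6. Over all 22182 genes made from the mean of their probe sets, 11677 lay above 0 and 10505 below.

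**Figure D5:**
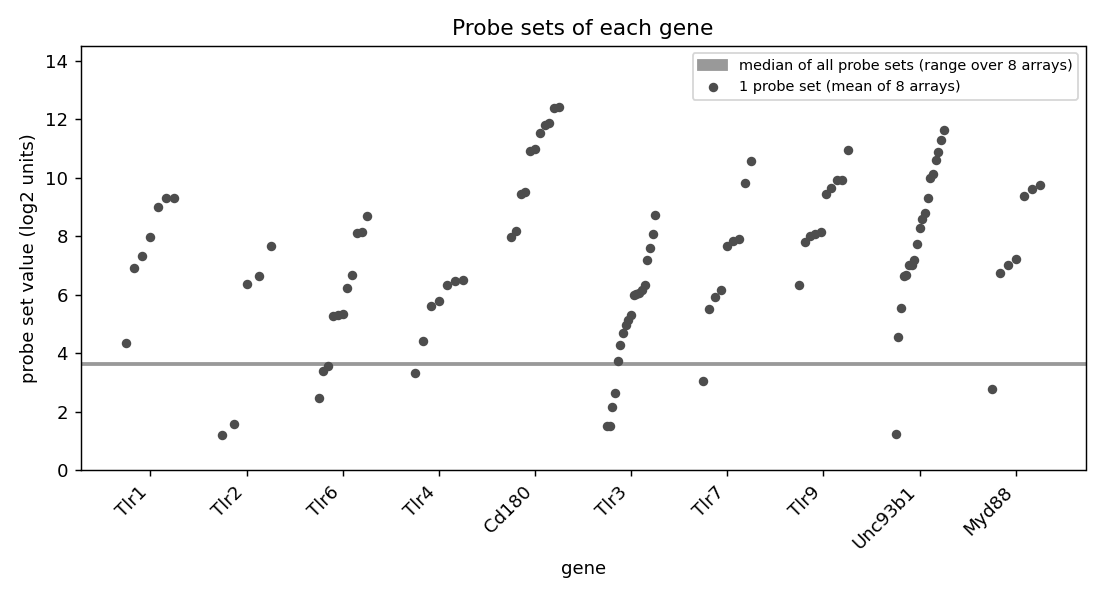
Mean log2 value over 8 arrays of each probe set (points) of the 10 genes (horizontal axis), with the range of the arrays' median probe set as a band. All probe sets of Cd180, Tlr1 and Tlr9 lie above the band, while those of Tlr2 span 1.20 to 7.66 and those of Tlr3 1.52 to 8.73.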

How the data were processed

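Per the labels, the deposited probe set table holds log2 RMA values made by the authors with the oligo package, and the submitters' processing notes name R 2.15.1. RMA corrects background, gives all arrays the same distribution and averages probes robustly, so values are relative within an array. The deposited gene table states no scale, and log2 was inferred from its range of 0.89 to 12.64. How genes were summarised from probe sets is not given in the sources at hand. Gene table columns carry the genotype but no sample number, so they are called arrays a to d of a group, and probe set columns replicates 1 to 4. Each array stands for a different mouse.

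Of 16495 rows, 4 with a number for a name were dropped, and rows sharing 1 of 72 names were averaged. Of the 16419 genes, 14742 matched a current symbol and 1441 a synonym in RefSeq (GRCm38.p6), while 236 stayed under their deposited names. In the platform annotation 321091 probe sets have 1 gene symbol, and 7796 have several and name no gene here.

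All genes were fitted with limma 3.58.1, run in R 4.3.3 by lmFit and eBayes (2-sided), as ROR1xTCL1 minus TCL1, without a filter, and p-values were adjusted by Benjamini-Hochberg over all genes. The code was tested on simulated data. The median half-width of a gene's 95% interval was 0.34. Correlations have exact permutation p, adjusted over the pairs of a family. Alternatives were other gene summaries, scalings, filters and moderation, a Ddx3y covariate, a replicate block and leaving out arrays.

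Besides the members, the text names in each list the genes of unadjusted p under 0.05 or, up to 3, the smallest p, and the 3 genes most like each of the 3 most variable members above the olfactory level on all arrays. Ly86 and Ror1 were named for their roles. Members and lists were chosen with earlier results of these data known.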

Additional observations from a re-analysis of the deposited data

Results flagged for a closer look

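Single arrays were compared with the other 3 of their group for 33 genes, the members, the other receptors and the named pathway genes. In 4 of 66 groups 1 array stood apart by Dixon's ratio, and chance gives about 1 in 20. Tlr9 read 8.97 on ROR1xTCL1 array b, against 8.44 to 8.47 on the others of its group. Tlr11 read 4.77 on TCL1 array a, against 3.78 to 3.90 on the others, and this array is the 1 on which it passed the olfactory level. Ly96, which encodes the TLR4 partner MD-2, read 9.84 on ROR1xTCL1 array c, against 9.32 to 9.37 on the others. Nlrx1, a mitochondrial regulator, read 5.87 on ROR1xTCL1 array b, against 5.20 to 5.27 on the others. ROR1xTCL1 array b is also the array of lowest Tlr3 and, in its group, of lowest Tlr4.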

How the results depend on the processing

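In 19 fits, the reported one included, 0 members, 0 genes and, where computed, 0 pairs of members passed the adjusted threshold; the smallest unadjusted limma p of a member was 0.0775 (Tlr6 without ROR1xTCL1 array c). The differences are near 0, and their signs are not settled: 62 of 80 kept their direction without 1 array. Other alternatives that can move a difference were the Ddx3y covariate, median centring, quantile normalization and the mean or median of probe sets. Leaving out ROR1xTCL1 array b and TCL1 array d together can also move it. Under these alternatives 9 member results turned, and the rest kept their direction. With Ddx3y as a covariate Tlr1 was -0.044, Tlr4 -0.047 and Myd88 0.03. With arrays centred on the median Myd88 was 0.0057. With the mean of probe sets it was 0.027, and also with the replicate block. With the median of probe sets Tlr2 was 0.24 and Tlr7 0.11. Without ROR1xTCL1 array b and TCL1 array d, left out after seeing the data, Tlr6 was 0.044 and Unc93b1 0.0437. The cause of these turns was not tested. Leaving out 1 array in turn gave -0.10 to 0.093 for Tlr1, -0.18 to 0.085 for Tlr2, -0.40 to 0.039 for Tlr3, -0.19 to 0.35 for Tlr4, -0.23 to 0.021 for Tlr6, -0.18 to 0.28 for Tlr7, -0.044 to 0.14 for Tlr9, -0.15 to -0.0073 for Cd180, -0.092 to -0.0018 for Unc93b1 and -0.088 to 0.094 for Myd88. The count of 9 members above the olfactory level became 7 with the 99th percentile and 7 with the mean of probe sets. The members that fell short were not the same. With the mean of probe sets Tlr2 was above on 7 arrays, Tlr3 on 6 and Tlr4 on 7, and Tlr6 was above on all 8. Deviations of same-numbered replicates correlated at 0.23, -0.00, 0.22 and 0.11, and 3 of 4 ROR1xTCL1 samples correlated best with their own number; not every number was over 0.1, and no label says what a number marks, so the samples were not treated as paired. The replicate block moved the genes of unadjusted p under 0.05 to 569, against 416 without it.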
